A study of Homo sapiens with 18 samples.

Results

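Hyaluronan (HA) of very high molecular mass from naked mole-rat skin fibroblasts (NSF-HA) was compared with the same HA after partial fragmentation in human cells that received no oxidant. The comparison consisted of 6 of the 18 libraries of the series, 3 of the group cNSF-HA and 3 of the group fNSF-HA, chosen by their labels. All were IMR90 cells, primary human lung fibroblasts of 1 strain, kept with HA at 20 μg/ml for 6 h in EMEM with serum and collected at the end of the incubation. cNSF-HA is the control preparation, kept with hyaluronidase that had been inactivated by heat, and fNSF-HA was cut in part by active hyaluronidase before the enzyme was inactivated by heat, so both preparations carried inactivated enzyme. Another group of 3 libraries received PBS for 6 h and served as reference. The other 9 libraries came from the same 3 pre-incubations followed by 200 μM tert-butyl hydroperoxide (tBHP), an organic peroxide, for 1 h, with collection 6 h after the start of tBHP. Polyadenylated RNA was sequenced, and the study states that its replicates are biological.

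HA is a long unbranched sugar polymer that HA synthases extrude from the cell surface into the matrix. Fibroblasts bind it mainly through CD44, a transmembrane receptor whose ectodomain can be shed by ADAM10 and whose tail is linked to actin by ERM proteins such as radixin. Chain length matters for what HA does: long chains are associated with tissue quiescence, and short fragments are associated with inflammation and wound repair. The comparison addresses which transcripts depended on the length of the polymer before any stress was applied.

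The 6 libraries held 21130667 to 23935069 reads assigned to genes. Of 56269 genes in the table, 13686 had a mean normalised count of at least 10 over the 18 libraries and were tested. Fibroblast genes were abundant, with COL1A1 at a mean of 268088 normalised counts in cNSF-HA and 257344 in fNSF-HA. The summed level of 10 fibroblast markers was 605631 to 615016 in cNSF-HA and 594921 to 605353 in fNSF-HA. PECAM1, CDH5 and SFTPC, which define endothelium and alveolar epithelium, were at 0 reads in all 6 libraries, and summed levels were 3.82 to 11.7 against 3.92 to 5.59 for 5 blood markers and 7.82 to 12.4 against 6.52 to 14.8 for 4 endothelial markers. KRT8, KRT18 and KRT19 were expressed, and the 6 epithelial markers summed to 2087 to 2240 in cNSF-HA and 2126 to 2214 in fNSF-HA. In bulk RNA, a change in the mixture of cells and a change within cells cannot be told apart.

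Between cNSF-HA and fNSF-HA, 980 of 13686 genes passed an adjusted p of 0.05 in limma, which is 7.16% of the genes tested. Of these, 244 (1.78% of the genes tested) were higher in cNSF-HA and 736 (5.38%) were lower. The differences were small. The median of the genes called higher was 1.14-fold, the median of the genes called lower was 1.11-fold in favour of fNSF-HA, and 701 of the 980 (71.5%) differed by less than 0.2 on the log2 scale. In 937 of the 980 called genes the 3 cNSF-HA libraries lay entirely above or entirely below the 3 fNSF-HA libraries, which was so for 25.0% of all genes tested. Leaving out fNSF-HA replicate 2 lowered the count to 228, leaving out cNSF-HA replicate 2 to 531 and leaving out fNSF-HA replicate 3 to 546. The spread was narrow, with a median SD of log2 values of 0.0702 within cNSF-HA and 0.0632 within fNSF-HA.

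The direction and the number of calls moved with the scaling and the test. After TMM scaling in place of the deposited DESeq2 scaling, 353 of 706 called genes were higher in cNSF-HA, against 24.9% of the 980. The edgeR quasi-likelihood test on recovered reads called 766 genes, 47.1% of them higher, DESeq2 called 380 with 38.4% higher, and quantile normalization gave 430 with 58.4% higher. The median log2 difference of all genes moved between -0.0186 as deposited and 0.00765 under TMM, so the median of a list within that distance of 0 can change sign with the scaling. A limma fit that shared its estimate of the spread over all 18 libraries called 0 genes, with 206 at an unadjusted p under 0.05, where the fit of the 6 libraries had 2836. DESeq2 on all 18 libraries called 0 as well, with 190. The median SD of log2 values was 0.153 within cNSF-HA + tBHP and 0.221 within fNSF-HA + tBHP, so the fit reported here kept to the 6 libraries compared.

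**Figure D1:**
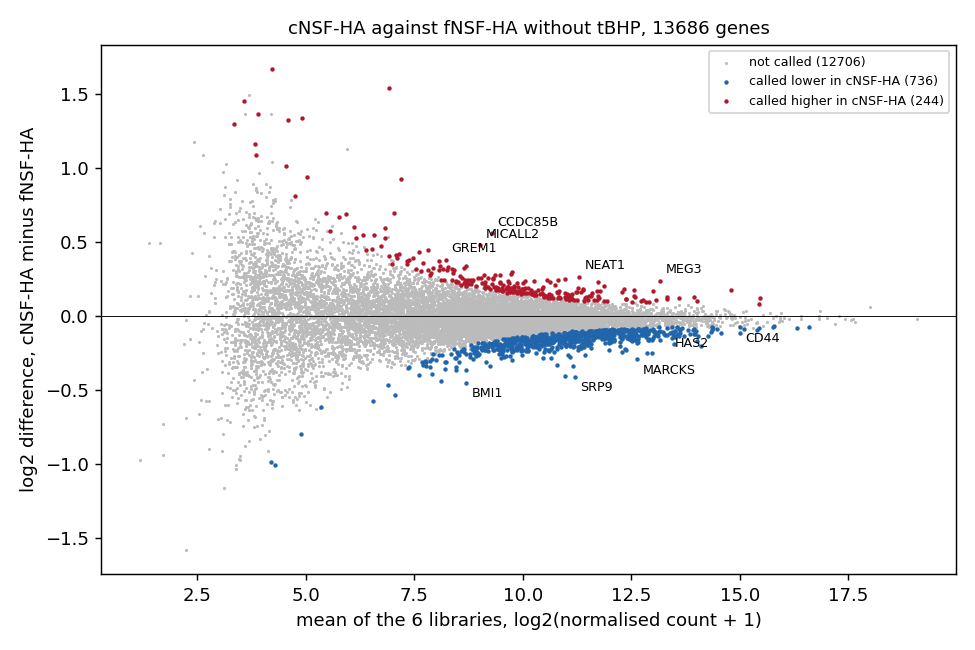
Log2 difference between cNSF-HA and fNSF-HA (y axis) against the mean log2 normalised count of the 6 libraries (x axis), 1 point a gene, for the 13686 genes tested. The 736 genes called lower (blue) form a dense band just below 0 at middle and high expression, and the 244 called higher (red) are spread over a wider range of differences.

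The differences moved with the base composition of the transcript. Transcript GC content and length were available for 12528 of the genes tested (91.5%). Genes called higher in cNSF-HA had a median transcript GC content of 64.2% and genes called lower one of 39.1%, against 48.3% over all genes tested. When the genes were ordered by GC content and cut into 10 bins of equal size, the bin with the lowest GC content (29% to 38.6%) had a median log2 difference of -0.117, with 303 genes called lower and 1 called higher. In the bin with the highest GC content (61.7% to 75%) it was 0.0955, with 157 called higher and 0 called lower, where 0 is the count of limma calls. Between them the medians rose at every step. The slope of each library against the 9 libraries without tBHP was 0.0261 to 0.0676 log2 units per 10 percentage points of GC in cNSF-HA, -0.0555 to -0.0189 in fNSF-HA and -0.0202 to 0.0156 in PBS. The slopes of cNSF-HA and fNSF-HA did not overlap (mean 0.0412 against -0.0341; exact permutation test, two-sided, p = 0.1, the smallest that 3 against 3 libraries allow).

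When the trend with GC content and length was removed from each library, limma called 133 of the 12528 genes. Of these, 18 were higher and 115 were lower in cNSF-HA. The removal kept the deposited scaling, with a median log2 difference of -0.019 over all genes. It was not combined with another scaling, so how far this split depends on the scaling was not tested. Of the 980 genes, 92 were called in both fits with the same sign, 15 higher and 77 lower, and 914 of the 952 with a GC value kept their sign. With the trend removed and fNSF-HA replicate 2 left out 19 genes were called, and with cNSF-HA replicate 2 left out 22. The part of the trend in the calls was not tested beyond removing it. For many of the genes named, values are given with and without the trend.

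**Figure D2:**
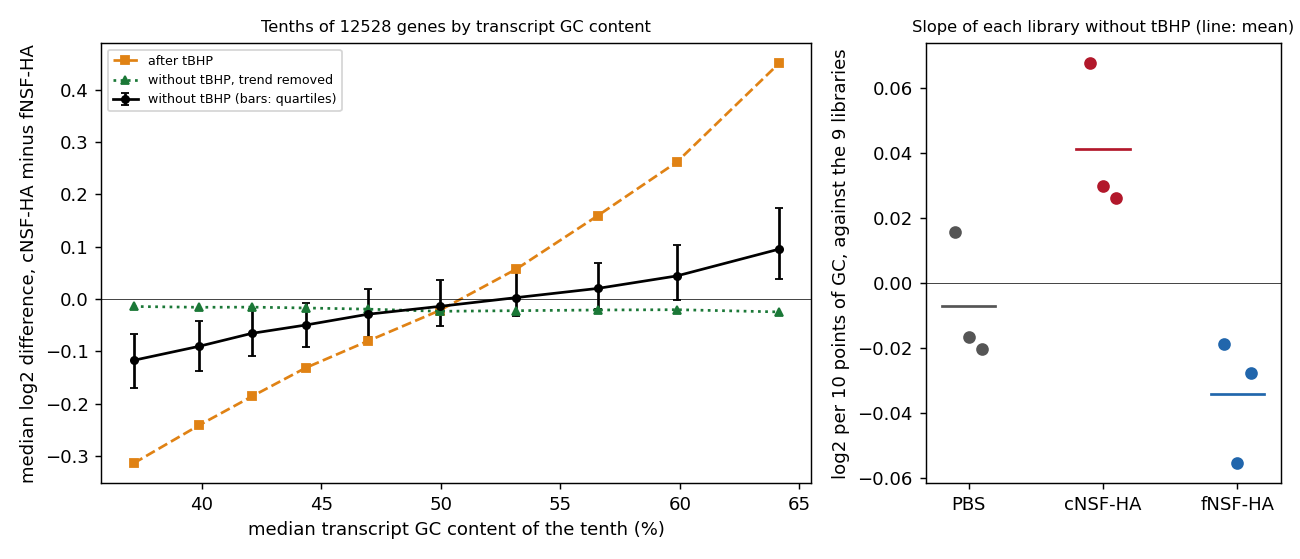
Left, median log2 difference between cNSF-HA and fNSF-HA (y axis) for 10 bins of 12528 genes ordered by transcript GC content (x axis, %), without tBHP (black, bars span the quartiles), after tBHP (orange) and without tBHP once the trend was removed (green); the black medians climb from -0.117 to 0.0955. Right, slope of each library without tBHP (points) and group mean (line), in log2 units per 10 percentage points of GC; the 3 cNSF-HA libraries lie above the 3 fNSF-HA libraries.

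Among called genes with a mean of at least 100 normalised counts and no overlap between the groups, the 12 largest differences in each direction were examined. CCDC85B, a small coiled-coil protein gene at chr11:65890112-65891635 (GRCh38, plus strand), had the smallest adjusted p of those named. Its normalised counts were 781, 709 and 733 in cNSF-HA and 487, 457 and 566 in fNSF-HA, with 559 to 717 in PBS. All 3 cNSF-HA libraries were above all 3 fNSF-HA libraries (log2 difference 0.56 ± 0.06 SE, limma adjusted p = 1.01e-05), and 0.39 remained without the trend (adjusted p = 0.000208). MICALL2, which links Rab traffic at cell junctions to actin, had 589, 584 and 638 normalised counts in cNSF-HA and 393, 446 and 463 in fNSF-HA (log2 difference 0.48, limma adjusted p = 0.000166, and 0.33 without the trend, adjusted p = 0.00339).

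GREM1, a secreted antagonist of bone morphogenetic proteins, had 343, 330 and 348 normalised counts in cNSF-HA and 272, 253 and 259 in fNSF-HA. The groups did not overlap (log2 difference 0.38 ± 0.07 SE, limma adjusted p = 0.00185). With a transcript GC content of 39.8%, GREM1 went against the trend and its log2 difference was 0.43 once the trend was removed (adjusted p = 0.00135). VASN, a TGF-beta binding cell surface protein, was higher by 0.53 with wider spread (134, 124 and 135 normalised counts against 102, 64.1 and 114; limma adjusted p = 0.0267) and did not pass without the trend (adjusted p = 0.218). PTOV1-AS2, an antisense transcript, differed most (144, 168 and 170 against 83.4, 114 and 99.7 normalised counts, log2 difference 0.70, limma adjusted p = 0.00106, and 0.61 without the trend, adjusted p = 0.0067). The libraries were not stated to be counted by strand, so its reads cannot be told apart from those of PTOV1 on the other strand. C4orf48, TPGS1, MEG9, LRP5L, C20orf24 and RTEL1-TNFRSF6B were higher by 0.39 to 0.59. C20orf24 had no GC value, and the others of these did not pass without the trend. Among the 12, 1 more transcript has only a clone-based name.

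On the side of fNSF-HA, RTKN2 was largest, with 106, 118 and 101 normalised counts in cNSF-HA and 168, 155 and 150 in fNSF-HA (log2 difference -0.53, limma adjusted p = 0.00343). Without the trend it was at -0.41 and did not pass (adjusted p = 0.0593). BMI1, a Polycomb protein that represses the CDKN2A locus, had 279, 373 and 410 normalised counts in cNSF-HA and 472, 499 and 466 in fNSF-HA (log2 difference -0.45 ± 0.09 SE, limma adjusted p = 0.00188). It also passed without the trend, at -0.37 (adjusted p = 0.00973). SRP9, a subunit of the signal recognition particle, had 1652, 2076 and 2406 normalised counts in cNSF-HA and 2578, 2820 and 2671 in fNSF-HA (-0.41, limma adjusted p = 0.000594), and TMED7, a cargo receptor of vesicles between endoplasmic reticulum and Golgi, had 1343, 1798 and 2063 against 2318, 2358 and 2127 (-0.41, adjusted p = 0.00149). Both passed without the trend, at -0.31 for each, and neither passed in DESeq2 (adjusted p = 0.152 for SRP9 and 0.247 for TMED7). In SRP9, TMED7 and BMI1 the lowest value was that of cNSF-HA replicate 1, and the lowest PBS value was that of replicate 1 as well (2093 normalised counts for SRP9 against 2632 and 2587).

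NDUFC2, a subunit of respiratory complex I, had 308, 371 and 410 normalised counts in cNSF-HA and 448, 477 and 473 in fNSF-HA (log2 difference -0.37, limma adjusted p = 0.0035, and -0.35 without the trend, adjusted p = 0.00991). ABCC9, the sulfonylurea receptor subunit of potassium channels, was lower by 0.37 on the log2 scale in cNSF-HA, with 291 to 325 against 353 to 427 normalised counts, and by 0.28 without the trend (limma adjusted p = 0.0481). BIRC3, an inhibitor of apoptosis that is induced by NF-kB, had a log2 difference of -0.36 (limma adjusted p = 0.00925), which did not pass without the trend (adjusted p = 0.181). HINT3, LYRM5, CRIPT, ZNF711 and ZNF708 had log2 differences of -0.47 to -0.35. LYRM5 had no GC value, and the others of these did not pass without the trend. In edgeR LYRM5 and ZNF708 did not pass (adjusted p = 0.0666 and 0.0553). In the plot of these genes by library the PBS means lie between the means of the HA groups.

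**Figure D3:**
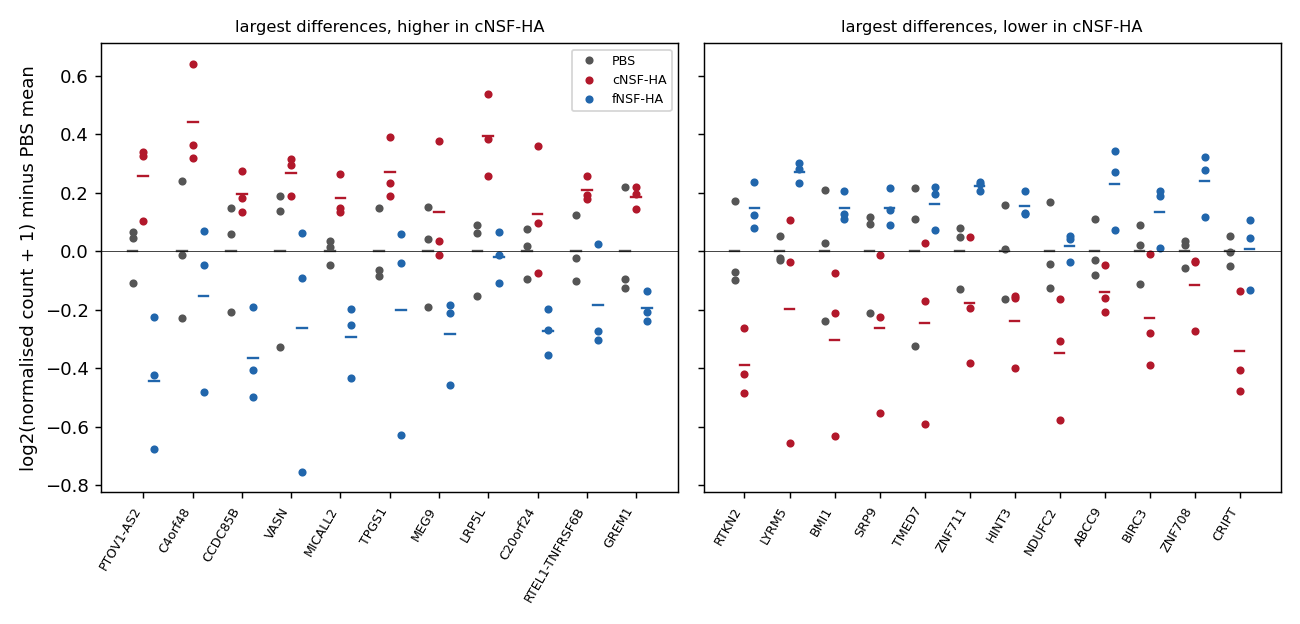
Log2 normalised counts of each library relative to the PBS mean (y axis) for the largest differences with gene symbols, 11 higher (left) and 12 lower (right) in cNSF-HA (x axis, genes). Points are libraries and short lines are group means; red (cNSF-HA) and blue (fNSF-HA) points do not overlap for any of these genes, which is a condition of their choice, and the grey PBS means at 0 lie between the means of the HA groups.

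Promoters of a few of these genes are shown because the study searched for CCTGCG, the motif given for the free intracellular domain of CD44, in promoters. The study used promoter regions of another length and genes that differed after tBHP, so the shares below do not repeat its search. Sequences are from RefSeq on GRCh38.p14, 5′ to 3′ on the strand of the gene, from 250 bases before to 50 bases after the start, with CCTGCG or its reverse complement in capitals. For CCDC85B, HMMR and SRP9 the RefSeq start lies downstream of the start of the GENCODE gene. CCDC85B (chr11:65890423-65890722, GC content 70.7%) and SRP9 (chr1:225777576-225777875, 67.3%) held no match, VASN (chr16:4371598-4371897, 72%) held 2 and HMMR (chr5:163460382-163460681, 53.3%), an HA receptor described next, held 1.
CCDC85B: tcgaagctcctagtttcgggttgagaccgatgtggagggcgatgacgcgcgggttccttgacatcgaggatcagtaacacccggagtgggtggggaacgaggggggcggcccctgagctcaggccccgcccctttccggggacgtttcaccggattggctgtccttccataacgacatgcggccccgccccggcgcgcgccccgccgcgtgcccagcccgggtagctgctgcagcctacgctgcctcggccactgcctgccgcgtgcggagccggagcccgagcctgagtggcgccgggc
VASN: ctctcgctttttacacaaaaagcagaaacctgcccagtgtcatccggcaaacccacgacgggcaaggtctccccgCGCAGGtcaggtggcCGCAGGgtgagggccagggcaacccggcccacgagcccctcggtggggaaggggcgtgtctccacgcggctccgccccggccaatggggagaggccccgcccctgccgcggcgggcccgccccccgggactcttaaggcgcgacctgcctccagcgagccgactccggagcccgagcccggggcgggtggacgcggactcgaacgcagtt
SRP9: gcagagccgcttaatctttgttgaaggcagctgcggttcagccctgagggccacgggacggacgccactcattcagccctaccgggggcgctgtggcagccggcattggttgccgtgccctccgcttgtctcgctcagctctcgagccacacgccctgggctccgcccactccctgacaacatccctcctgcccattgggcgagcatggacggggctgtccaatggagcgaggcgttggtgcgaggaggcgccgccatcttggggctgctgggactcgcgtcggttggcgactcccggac
HMMR: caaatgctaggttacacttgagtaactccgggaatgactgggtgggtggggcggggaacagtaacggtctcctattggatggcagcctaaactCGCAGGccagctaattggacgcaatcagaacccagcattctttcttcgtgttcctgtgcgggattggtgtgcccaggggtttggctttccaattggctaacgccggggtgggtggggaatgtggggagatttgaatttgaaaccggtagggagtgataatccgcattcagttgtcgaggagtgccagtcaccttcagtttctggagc
A promoter was found by symbol for 9700 of the genes tested. The motif was in 68 of 169 promoters (40.2%) of genes called higher in cNSF-HA, in 213 of 581 (36.7%) of genes called lower and in 36.2% of all promoters of tested genes. Over all 27305 promoters in the table the share was 23.5%. Promoters of genes called lower had a median GC content of 66%, near the 65.3% of tested genes, while their transcripts had the low GC content given above; promoters of genes called higher had a median of 70.7%.

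Of 9 HA receptors listed, 3 were expressed enough to be tested and 2 were called, both lower, beside 5.38% of all genes called lower. CD44 had 31777, 32705 and 31857 normalised counts in cNSF-HA and 33841, 33915 and 33856 in fNSF-HA. The groups did not overlap, at a difference of 1.05-fold (log2 difference -0.08, limma adjusted p = 0.0285). HMMR, an HA-binding protein that also acts on the mitotic spindle, had 1604, 1730 and 1687 against 1777, 1867 and 1891 (log2 difference -0.14, limma adjusted p = 0.0207). LAYN, the other receptor tested, was at -0.05 and did not pass (adjusted p = 0.632).

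Of 9 tested genes for HA synthesis and breakdown, 2 were called and both were lower in cNSF-HA (22.2%, beside 5.38%). HAS2, the main HA synthase of fibroblasts, had 9911, 10234 and 10730 normalised counts in cNSF-HA and 10931, 11301 and 11172 in fNSF-HA, with 11004 to 11114 in PBS (log2 difference -0.11 ± 0.03 SE, limma adjusted p = 0.00881). UGP2, which makes the UDP-glucose from which HA precursors derive, had a log2 difference of -0.13 (limma adjusted p = 0.0186). UGDH and TMEM2, a surface hyaluronidase, were at -0.09 and -0.08 with adjusted p of 0.0687 and 0.0636 in limma. Of 19 CD44 partners and ERM linkers, 3 were called, all lower (15.8%, beside 5.38%). They were IQGAP1, a scaffold between CD44 and actin (-0.10), ADAM10, a CD44 sheddase (-0.12), and RDX, radixin (-0.10). ADAM10 had 3672, 3707 and 3910 normalised counts in cNSF-HA and 4038, 4104 and 4115 in fNSF-HA. Of 6 HA-binding matrix proteins 0 passed in limma, with 2 at an unadjusted p under 0.05 and 0 in edgeR or DESeq2. CD44, HMMR, HAS2, UGP2, IQGAP1, ADAM10 and RDX did not pass without the GC and length trend, where CD44 was at -0.05, HMMR at -0.04 and HAS2 at -0.01 on the log2 scale; in edgeR HAS2 passed (adjusted p = 0.0443) and CD44 and HMMR did not (0.161 and 0.063). IQGAP1, ADAM10 and RDX did not pass in edgeR (adjusted p = 0.0597, 0.0545 and 0.104). Under TMM, quantile normalization, edgeR and DESeq2 the 3 receptors remained below 0 and 0 were called. In the synthesis list 1 gene was called in edgeR and 0 under the others, and in the list of CD44 partners 1 was called under quantile normalization and in DESeq2 and 0 under TMM and in edgeR.

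Of 20 collagen genes 3 were called, all higher in cNSF-HA (15%, beside 1.78% of all genes called higher). COL6A2, a chain of the microfibrillar collagen VI, had 47058, 47141 and 46986 normalised counts in cNSF-HA and 43400, 41853 and 44675 in fNSF-HA (log2 difference 0.12, limma adjusted p = 0.00188). COL6A1 and COL7A1 were at 0.08 and 0.16. HSPG2, the basement membrane proteoglycan perlecan, had 16504, 16719 and 16390 against 15372, 14627 and 15355 normalised counts (0.13, limma adjusted p = 0.00158), and LTBP3, which holds latent TGF-beta in the matrix, and EMILIN1 of elastic fibres were higher by 0.21 and 0.11; these were the only called members among 31 other matrix glycoproteins and proteoglycans (9.68%). These 6 genes did not pass without the trend, where the median log2 difference of all genes was -0.019. COL6A1, COL6A2, HSPG2 and EMILIN1 changed sign there (-0.02, -0.03, -0.02 and -0.06). COL4A1 and COL4A2 were called lower there (-0.09 each, limma adjusted p = 0.0186 and 0.016). The libraries of COL7A1 overlapped between the groups. Of 23 matrix proteases and inhibitors 0 passed in limma, with 1 at an unadjusted p under 0.05, and 0 passed in edgeR or DESeq2.

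Among 17 enzymes that modify collagen, LOX, which crosslinks it, PLOD2 and P4HA1, which hydroxylate it, were lower in cNSF-HA (log2 differences -0.11, -0.13 and -0.10), and LOXL1 was higher (0.14), which is 23.5% called beside 7.16% of all genes. These 4 did not pass without the trend, where LOXL1 was at -0.03 (limma adjusted p = 0.787). Of 31 integrins and focal adhesion genes 7 were called lower and 1 was called higher (25.8%). The lower ones were the integrin subunits ITGA1, ITGA2, ITGA6, ITGAV and ITGB1, the adaptor LIMS1 and the caveolar protein CAV1, with log2 differences of -0.21 to -0.07. ITGB1, the subunit that pairs with collagen and fibronectin receptors, had 54782, 54937 and 55158 normalised counts in cNSF-HA and 56778, 57835 and 58434 in fNSF-HA. Its log2 difference was 0.00 without the trend, with the sign turned (limma adjusted p = 0.962), and it did not pass in edgeR (adjusted p = 0.213) or DESeq2 (0.155). BCAR1, a docking protein of adhesion signalling, was higher by 0.12. Under TMM scaling 2 adhesion genes were called lower and 1 higher and the list's median log2 difference went from -0.0231 to 0.00317; without the trend CAV1 was the only one called (-0.08, adjusted p = 0.0478).

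In the TGF-beta pathway and its feedback genes, 2 of 28 were higher in cNSF-HA and 4 were lower (21.4% called, beside 7.16% of all genes). Besides GREM1, the ligand gene TGFB1 was higher (log2 difference 0.11, limma adjusted p = 0.0184). The receptors TGFBR1 and BMPR2, the repressor SKIL and the activin subunit INHBA were lower (log2 differences -0.22, -0.15, -0.16 and -0.12). TGFBR1 had 1287, 1130 and 1269 normalised counts in cNSF-HA and 1414, 1471 and 1409 in fNSF-HA. Of 30 growth factors and their receptors 4 were called, all lower (13.3%, beside 5.38%). They were FGF2 (2187, 2418 and 2584 against 2890, 2810 and 2656 normalised counts, log2 difference -0.22, limma adjusted p = 0.00183), FGF5 (-0.14), the KIT ligand gene KITLG (-0.20) and PDGFRA (-0.09). Under TMM scaling and in edgeR 3 genes of this list were called lower and 2 higher, under quantile normalization 2 and 2, and in DESeq2 2 and 1. YAP1, the effector of Hippo signalling, and CRIM1 were lower by 0.14 and 0.08 among 22 YAP-TEAD genes (9.09% called). In the Wnt list of 26 genes (11.5% called), the secreted inhibitor DKK1 and the receptor FZD6 were lower by 0.10 and 0.12 and the receptor FZD2 was higher by 0.16. In edgeR DKK1 and FZD6 did not pass (adjusted p = 0.0555 and 0.0812), and 2 genes of this list were called higher and 0 lower there and under TMM. RBPJ, the DNA-binding factor of Notch signalling, was the only called gene of 14 in its list (7.14%; -0.16). Of the genes named so far in this paragraph only GREM1 passed without the trend. CTGF, a matricellular protein gene that is in both the TGF-beta and the YAP-TEAD list, and SMAD2, a receptor-activated SMAD, were called without it and not with it (-0.09 and -0.14, limma adjusted p = 0.0216 and 0.0422).

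The study turns on p53, and its target genes were listed for that reason. Of 39 p53 target genes 2 were called, both lower in cNSF-HA, which is 5.13% and below the 7.16% of all genes. ZMAT3, an RNA-binding p53 target, had 1038, 977 and 1073 normalised counts in cNSF-HA and 1205, 1254 and 1181 in fNSF-HA (log2 difference -0.24 ± 0.04 SE, limma adjusted p = 0.00136, and -0.16 without the trend, adjusted p = 0.0401). PERP, a desmosomal effector of apoptosis, was at -0.15 (limma adjusted p = 0.00609) and did not pass without the trend (-0.08, adjusted p = 0.226). RRM2B, a ribonucleotide reductase subunit, PRRX2, a homeobox factor, and PYCARD, the inflammasome adaptor, which the study names as p53 targets, were at -0.08, 0.13 and 0.21 with limma adjusted p of 0.457, 0.0792 and 0.502. PRRX2 passed in edgeR (adjusted p = 0.0372) and was at -0.06 without the trend, and RRM2B was at 0.03 without it. The median log2 difference of the p53 targets was -0.04 against -0.02 over all genes. CHEK1, the checkpoint kinase, was the 1 call among 20 p53 regulators and cofactors (-0.16); it did not pass without the trend (limma adjusted p = 0.271).

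The study names the transcription factors ELK1, an ETS factor of the serum response, EGR1, an immediate early factor, and HIF1A, the hypoxia-inducible factor, with CD44. Its result concerns the binding sites and targets of these factors, not their own messenger RNA. The log2 differences of their messenger RNA were 0.03, -0.06 and -0.07. Of these 3 genes 0 passed in limma, edgeR or DESeq2, with 1 at an unadjusted p under 0.05 in limma. ELK1 and HIF1A changed sign without the trend (-0.02 and 0.04).

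In replication and repair, RFC3, a subunit of the clamp loader, CCNE2, cyclin E2, and RRM2, the small subunit of ribonucleotide reductase, were lower in cNSF-HA and POLD1, the catalytic subunit of DNA polymerase delta, was higher (log2 differences -0.24, -0.23, -0.08 and 0.16) out of 35 genes (11.4% called, beside 7.16% of all genes). BRCA2 and USP1 were lower and H2AFX was higher among 30 repair and checkpoint genes (-0.23, -0.14 and 0.14, with 10% called), and TOP2A and MAD2L1 were the 2 calls, both lower, of 32 G2/M genes (6.25%). Of 22 SR splicing factors and CLK kinases (22.7% called), SRSF3, SRSF1, SRPK1 and TRA2B were lower, and SRRM2 was higher (0.10). RFC3 alone among the genes named in this paragraph passed without the trend (-0.16, limma adjusted p = 0.0296), and SRSF9, another SR factor, was called without it and not with it (-0.12, adjusted p = 0.0403).

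Of 30 NRF2 and antioxidant genes 1 was called (3.33%, beside 7.16% of all genes), the mitochondrial peroxidase PRDX3 (-0.12). Of 26 genes of the integrated stress response MTHFD2 was called (3.85%; -0.12), and of 18 inflammatory genes BIRC3 (5.56%). IER3, an early gene induced by serum and stress, was the only called member of 29 immediate early genes (3.45%), with 98.3, 78.2 and 75.5 normalised counts in cNSF-HA and 60.8, 50.3 and 62.4 in fNSF-HA (log2 difference 0.53, limma adjusted p = 0.0325). Among 20 heat shock genes (15% called), HSPB1 was higher by 0.17 and DNAJB4 and HSPH1 were lower (-0.27 and -0.13). Among 24 endoplasmic reticulum chaperones and their partners (12.5% called), CANX, SEL1L and DNAJC3 were lower (-0.11, -0.15 and -0.13). Of 32 autophagy and lysosome genes ULK1, the kinase that starts autophagy, was called (0.18). These genes did not pass without the trend, where HSPB1 was at 0.04 (limma adjusted p = 0.426). CTGF of the immediate early list, NFKB2 of the inflammatory list and the amino acid transporters SLC7A1 and SLC1A5 of the stress response list were called lower without it and not with it (-0.09, -0.18, -0.09 and -0.10). Under TMM scaling and in edgeR the single call of the NRF2 list, and that of the integrated stress response list, was a higher gene.

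**Figure D4:**
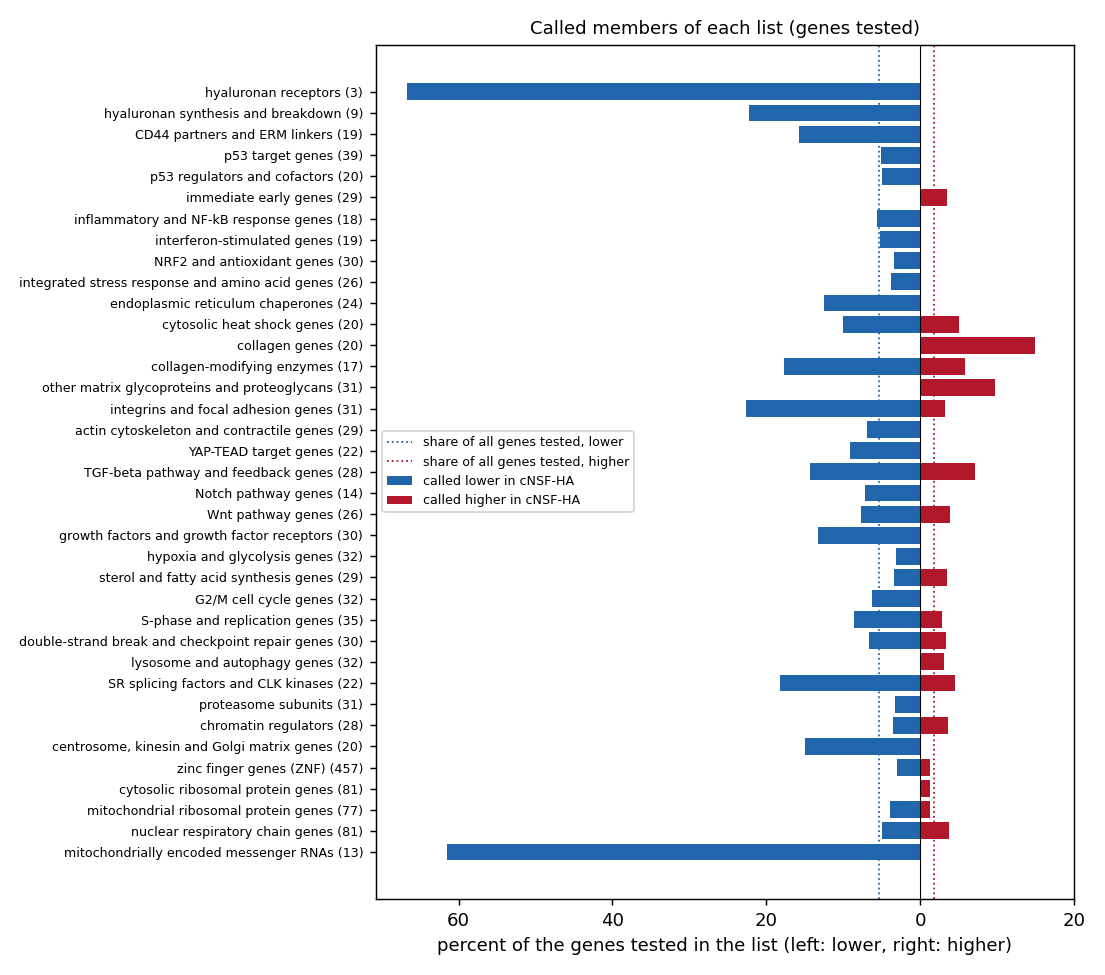
Percent of the tested genes of each list (y axis, number tested in parentheses) called lower (blue, to the left) and higher (red, to the right) in cNSF-HA, for the lists with at least 1 call other than the cell type markers; dotted lines mark 5.38% and 1.78%, the shares of all genes tested. The mitochondrially encoded messenger RNAs and the HA receptors, with 13 and 3 genes tested, have the longest bars, both to the left.

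Of the 13 mitochondrially encoded messenger RNAs 8 were called, all lower in cNSF-HA, beside 5.38% of all genes. All 13 had a log2 difference below 0 as deposited (-0.18 to -0.02), as had 57.4% of all genes tested. Their median GC content was 44.3%, and 77.2% of genes in the bin that holds this value (43.2% to 45.6% GC) were below 0. MT-ND6, the complex I subunit encoded on the light strand, had 1729, 1790 and 1737 normalised counts in cNSF-HA and 2031, 1910 and 2015 in fNSF-HA (log2 difference -0.18, limma adjusted p = 0.0026, and -0.15 without the trend, adjusted p = 0.0215). MT-ATP6, a subunit of ATP synthase, had 31099, 32430 and 31704 against 33812, 33864 and 35466 (-0.11, adjusted p = 0.00334). MT-ND3, MT-ATP8, MT-ND2, MT-CO2, MT-CO3 and MT-ND4 were lower by 0.14 to 0.07 in the same fit. Without the GC and length trend all 13 stayed below 0 and 4 were called, MT-ND6, MT-ATP6, MT-ND3 and MT-CO2. In that fit 133 of 12528 genes were called, and the median log2 difference of all genes was -0.019. Under TMM scaling 12 of 13 were below 0 with 3 called, in edgeR 12 with 4 called, in DESeq2 13 with 3 called and under quantile normalization 11 with 2 called and 2 tied at 0. MT-ATP8 and MT-ATP6 overlap over a short stretch, and reads within it cannot be given to either gene. Without strand, reads of MT-ND6 cannot be told apart from reads of the opposite strand at the same place. The share of all mitochondrially encoded genes in the reads was 2.48% to 2.57% in cNSF-HA, 2.58% to 2.64% in fNSF-HA and 2.60% to 2.64% in PBS.

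Of 81 nuclear genes of the respiratory chain 7 were called (8.64%, beside 7.16% of all genes). NDUFC2, NDUFA5, SDHD and CYCS, the gene of cytochrome c, were called lower, and NDUFS7, NDUFS8 and ATP5D were called higher. CYCS was at -0.22 (limma adjusted p = 0.00215) and at -0.16 without the trend (adjusted p = 0.0208), and NDUFS7 was at 0.24 (0.00247) and at 0.11 without it (0.29). NDUFA5, SDHD and NDUFS8 did not pass without the trend either (adjusted p = 0.428, 0.299 and 0.795), and ATP5D had no GC value. Under TMM scaling and in edgeR 5 genes of this list were called higher and 3 lower. Under quantile normalization 3 were called higher and 1 lower. In DESeq2 2 were called higher and 0 lower, so CYCS was not called there. Of 77 mitochondrial ribosomal proteins 3 were lower and MRPL41 was higher (0.28), so 5.19% were called. These 4 did not pass without the trend, where MRPL41 was at 0.03 (limma adjusted p = 0.896). Of 81 cytosolic ribosomal proteins RPL13 was called (1.23%; log2 difference 0.12, limma adjusted p = 0.00377) and passed without the trend at 0.09 (adjusted p = 0.0218). Without the trend RPLP1 was also called higher (0.08), and RPL7A and RPL36 were called lower (-0.10 and -0.12). In the large family of ZNF genes, 14 of 457 were lower and 6 were higher, so 4.38% were called. This split turned with the scaling and the test: 8 were higher and 1 was lower under TMM, 8 and 2 in edgeR, 6 and 1 under quantile normalization and 2 and 0 in DESeq2. Without the trend 1 was higher and 0 were lower.

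The genes called both with and without the trend are the 92 given above. The following were picked from them after their values were seen, by the smallest p without the trend. MARCKS, a membrane-bound regulator of actin and a substrate of protein kinase C, had 5031, 5878 and 6376 normalised counts in cNSF-HA and 6963, 7086 and 7039 in fNSF-HA (log2 difference -0.29, limma adjusted p = 0.000288, and -0.25 without the trend, adjusted p = 0.000208). BCAT1, which transaminates branched-chain amino acids in the cytosol, had 6705, 7469 and 7897 against 8436, 8956 and 8772 (-0.25, and -0.16 without the trend). NAA50, an N-terminal acetyltransferase, and GOLT1B, a Golgi transport protein, were lower by 0.24 and 0.33, and by 0.15 and 0.19 without the trend. GNAI3, an inhibitory G protein subunit, and FMN2, a formin, were lower by 0.14 and 0.16 with the trend. The cNSF-HA and fNSF-HA libraries of these 6 genes did not overlap. MARCKS and BCAT1 did not pass in DESeq2 (adjusted p = 0.0955 and 0.0528).

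MEG3, an imprinted noncoding RNA at chr14:100779410-100861031, had 9112, 10827 and 10084 normalised counts in cNSF-HA and 7777, 8798 and 8857 in fNSF-HA, with no overlap (1.18-fold, log2 difference 0.24 ± 0.04 SE, limma adjusted p = 0.00107, and 0.22 without the trend, adjusted p = 0.00138). NEAT1, the scaffold of nuclear paraspeckles, had 2334, 2899 and 3017 against 2066, 2364 and 2410, where the lowest cNSF-HA library lay below the higher fNSF-HA libraries (0.26, limma adjusted p = 0.00513, and 0.24 without the trend, adjusted p = 0.0208). Neither passed in DESeq2 (adjusted p = 0.079 for MEG3 and 0.183 for NEAT1). VIM-AS1, antisense to VIM, had a log2 difference of 0.45 (limma adjusted p = 0.0305), overlapping groups and the same limit of strand as PTOV1-AS2. Its PBS libraries, at 347 to 358 normalised counts, lay above those of both HA groups (202 to 291 and 157 to 250). Of called genes with an annotated type, long noncoding RNAs were 8 of 227 higher and 4 of 724 lower, against 428 of 12503 tested.

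PBS lay between the HA groups for most called genes. The PBS mean was between the means of cNSF-HA and fNSF-HA in 935 of 980 called genes (95.4%) and in 45.6% of all genes tested. Choosing genes by a difference between those groups favours such a position, so the share is given as a description. For genes called higher, the median log2 difference from PBS was 0.0893 for cNSF-HA and -0.0975 for fNSF-HA, and for genes called lower it was -0.0939 and 0.0598. In these medians cNSF-HA and fNSF-HA lay on opposite sides of PBS.

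After tBHP the same contrast between cNSF-HA and fNSF-HA was taken in the 6 libraries that received the oxidant, which share no library with the comparison above. There limma called 0 genes at an adjusted p of 0.05, with 1001 at an unadjusted p under 0.05, and edgeR and DESeq2 called 0 as well with 859 and 1043. That count depended on the libraries in the fit. When all 18 shared their estimate of the spread, DESeq2 called 793 genes after tBHP and limma 0, with 4402 and 4412 at an unadjusted p under 0.05. The sign was the same as without tBHP for 962 of the 980 called genes (98.2%) and for 71.0% of all genes tested. The median log2 difference of the genes called higher was 0.49 after tBHP against 0.19 before, and that of the genes called lower was -0.29 against -0.15. The medians by GC content ran from -0.314 in the lowest bin to 0.450 in the highest after tBHP, the same order as without it. By library the slope per 10 percentage points of GC was 0.0697, 0.0710 and 0.176 in cNSF-HA + tBHP. In fNSF-HA + tBHP it was -0.118, -0.452 and 0.0850, so the groups overlapped and replicate 2 stood apart. The part of that library in the medians after tBHP was not tested. With the trend removed in both, the same sign was held by 69.9% of the called genes with a GC value, by 86.5% of the 133 genes called with the trend removed and by 56.5% of all genes.

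CCDC85B was at 1.13 ± 0.45 (SE) on the log2 scale after tBHP, GREM1 at 0.44, BMI1 at -0.72, SRP9 at -0.62 and HAS2 at -0.43, each with a limma adjusted p of 0.466. MEG3 and NEAT1, which passed without tBHP, were at -0.02 and 0.04 after it. The difference between the 2 conditions was not tested for these genes.

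**Figure D5:**
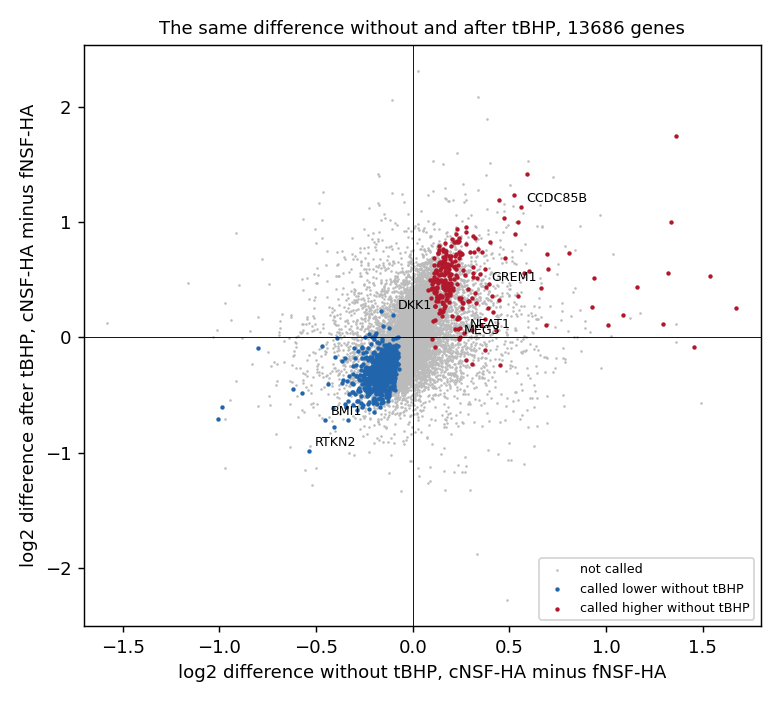
Log2 difference between cNSF-HA and fNSF-HA after tBHP (y axis) against the same difference without tBHP (x axis), 1 point a gene; red and blue mark the genes called higher and lower without tBHP. Of the 980 coloured points 962 lie in the quadrants of equal sign, and MEG3 and NEAT1 lie near 0 on the y axis.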

How the data were processed

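Polyadenylated RNA (TruSeq RNA V2, single-end reads of 100 nt; the kit does not mark strand) was sequenced from 6 groups of 3 libraries. The submitters' processing notes name Trimmomatic 0.32, STAR 2.5.2b, featureCounts of Subread 1.5.0-p3, DESeq2 and GRCh38.p7. The deposited table holds signal values, gene counts that the authors divided by DESeq2 size factors. Each value was a whole multiple of 1 read (100% of values within 0.01 read), so reads were recovered, and the edgeR quasi-likelihood test on them called 766 genes.

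Genes with a mean of at least 10 over 18 libraries were tested by limma (3.58.1, R 4.3.3; trend, two-sided, Benjamini-Hochberg, threshold 0.05) on log2(value + 1), in the 6 libraries compared, after a check on simulated data. Fold changes are on this scale, which understates those of low genes. Normalised counts are the deposited values. edgeR 4.0.16 and DESeq2 1.42.0 were alternatives. Transcript GC content and length came from GENCODE 29, and their trend was removed from each library by natural splines with 5 degrees of freedom. Read totals cover counting error only. Replicates differed by more than sampling noise, and none were identical.

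Genes were named by rule: the 12 largest called differences in each direction with a mean of at least 100 and no overlap, genes named in the text of the study, and up to 4 called members of each list by smallest p. Further called members of the matrix, adhesion, growth factor and mitochondrial lists, TRA2B, and genes called only without the trend or both with and without it were named after their values were seen. Members and lists were chosen with earlier results of these data known. Removal of the GC trend alone, and of both trends with 1 library left out, and fits of all 18 libraries by DESeq2 and, after tBHP, by limma, were added after seeing the data. Factors of the rule that the study's text does not name were left out. Some genes that these rules would name are not reported here.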

Additional observations from a re-analysis of the deposited data

Results flagged for a closer look

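DKK1, a secreted Wnt inhibitor, was lower in all 3 cNSF-HA libraries than in all 3 fNSF-HA libraries without tBHP (log2 difference -0.10) and higher in all 3 after tBHP (0.198). The search covered 137 named genes, and DKK1 alone was flagged. After tBHP DKK1 did not pass (limma adjusted p = 0.466), nor did it in edgeR without tBHP (adjusted p = 0.0555). The difference between the conditions was not tested.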

How the results depend on the processing

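The number of genes called between cNSF-HA and fNSF-HA stayed within 1.5 times of 980 with pseudocounts of 0.1 and 5, a minimum mean of 50, TMM scaling, edgeR and a fit of the 9 libraries without tBHP. Called, higher and lower genes numbered 84, 34 and 50 without a filter, 430, 251 and 179 after quantile normalization, 706, 353 and 353 under TMM, 766, 361 and 405 in edgeR, 380, 146 and 234 in DESeq2, and 0, 0 and 0 in the limma and DESeq2 fits of all 18 libraries (206 and 190 at an unadjusted p under 0.05). Without the GC and length trend they were 133, 18 and 115, and with the GC trend alone removed 113, 15 and 98. Leaving out 1 library gave 228 to 924 called, 52 to 239 higher and 176 to 748 lower; with both trends removed as well it gave 214, 41 and 173, 22, 3 and 19, and 122, 16 and 106 without cNSF-HA replicates 1, 2 and 3, and 42, 10 and 32, 19, 7 and 12, and 47, 8 and 39 without fNSF-HA replicates 1, 2 and 3. With the replicate number as a block the counts were 1525, 394 and 1131, and 341, 45 and 296 with the trend removed too. Same-numbered deviations correlated at 0.115, 0.034 and 0.063, and those with unlike numbers at -0.105 to 0.049. Replicate 1 had the highest GC slope of its group without tBHP (0.0156 in PBS, 0.0676 in cNSF-HA and -0.0189 in fNSF-HA). The labels do not say whether equal numbers mark libraries handled together, and the main fit had no block. The share of called genes with the same sign after tBHP was 60.71% without a filter, 99.21% in DESeq2, 86.47% without the trend, and 95.37% to 98.87% with 1 library left out. Of 131 named called genes, 9 changed sign without the trend, with or without the block. These were COL6A2 (-0.02944), COL6A1 (-0.02209), LOXL1 (-0.02516), HSPG2 (-0.01582), EMILIN1 (-0.05901), FASN (-0.03504), H2AFX (-0.01398), ZNF469 (-0.02984) and ITGB1 (0.00433). Without the trend the median log2 difference of all genes was -0.019, so the sign of values near it can change with the scaling. Of those not called, RRM2B (0.03452), PRRX2 (-0.06472), ELK1 (-0.01665) and HIF1A (0.03634) changed sign there, and with 1 library left out ELK1 ranged from -0.01385 to 0.07011. The cause of these shifts was not tested.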

Other observations

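Between cNSF-HA and fNSF-HA limma called 7.16% of all genes. Of 32 hypoxia and glycolysis genes (3.13% called), BNIP3L, a mitophagy receptor, was lower in cNSF-HA (log2 difference -0.15). Of 29 genes of sterol and fatty acid synthesis (6.90% called), SC5D, which acts late in cholesterol synthesis, was lower (-0.24) and FASN, the fatty acid synthase, was higher (0.10, and -0.04 without the trend). CALD1, which binds actin and myosin, and MKL2, a coactivator of serum response factor, were the 2 called of 29 actin genes (6.90%), both lower (-0.13 and -0.19). Among 28 chromatin regulators (7.14% called) the remodeller CHD1 was lower (-0.16) and the histone methyltransferase KMT2D was higher (0.11), and PSMD12 was the 1 call among 31 proteasome subunits (3.23% called; -0.16). The kinesins KIF5B and KIF20B and the endosomal tether EEA1 were lower among 20 centrosome, kinesin and Golgi genes (-0.11, -0.16 and -0.15, with 15% called). Of 14 histone genes and 23 small nucleolar RNA host genes 0 were called in limma, with 1 and 3 at an unadjusted p under 0.05. The genes named so far did not pass without the GC and length trend, except MKL2, which had no GC value. Others were called lower without it and not with it, SRF, MYH9, ACTG1 and MYL9 of the actin list (-0.13, -0.07, -0.07 and -0.09) and PKM and ALDOA of the hypoxia and glycolysis list (-0.07 each).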
